A study of Mus musculus with 42 samples.

Results

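Liver sinusoidal endothelium and its capillarization were followed through 10 genes, measured in bulk liver RNA of 42 female mice. The 10 genes were taken as a given list of symbols, matched to the 54446 gene identifiers of the count table. They fall into 6 genes of the sinusoidal lining (Stab1, Stab2, Lyve1, Clec4g, Fcgr2b and Oit3) and 4 vascular genes (Pecam1, Cdh5, Vwf and Cd34). In GRCm38, Clec4g lies at chr8:3707064-3720651 and Fcgr2b at chr1:170958617-170976547 on the minus strand, Lyve1 at chr7:110850607-110863239 on the minus strand, Cdh5 at chr8:104101625-104144511 and Cd34 at chr1:194938819-194961279 on the plus strand. The values are for whole genes, summed over exons. All 10 had enough counts to be tested, as had 15574 genes in all.

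All mice carried the human APOE*3-Leiden transgene, which gives them a human-like lipoprotein profile. The chow group (n = 10) stayed on plain maintenance chow. Its label also gives 32 weeks, and its starting age is not given in the sources used here. The WTD group (n = 16) received a Western-type diet with 15% cocoa butter, 40.5% sucrose and 1% cholesterol from an age of 8 to 14 weeks. After a run-in of 3 weeks the diet was continued for 32 weeks, with 0.05% sodium cholate added from week 22. The atorvastatin group (n = 16) received the same diets, with atorvastatin, an inhibitor of cholesterol synthesis, mixed in from the end of the run-in at 3.0 mg/kg/day and from week 5 at 4.5 mg/kg/day. The cholate was thus given to both WTD-fed groups and not to the chow group. The labels number the chow mice in a series of their own (AZ) and all WTD-fed mice in another (Gen), so anything else that separates these series cannot be told apart from the diet.

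The capillaries of the liver, the sinusoids, are lined by an endothelium that differs from that of other capillaries. It is perforated by open pores, lacks a continuous basement membrane, and clears waste molecules, lipoprotein remnants and immune complexes from the blood through scavenger and Fc receptors. In chronic liver injury these cells can lose their pores and scavenger receptors and take on markers of ordinary continuous vessels, such as CD34 and von Willebrand factor, a process called capillarization.

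Most of the 10 genes are not particular to a single cell type. Stab1 and Lyve1 are also carried by macrophages, and Lyve1 by lymphatic vessels. Fcgr2b is found on B cells and macrophages as well, Pecam1 on platelets and leukocytes, Vwf in megakaryocytes, and Cd34 on fibroblasts and progenitor cells. In bulk tissue fewer cells of a type and less RNA per cell cannot be told apart.

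Levels are given as counts-per-million values (CPM), the counts of a gene relative to the counts of its whole library after scaling for RNA composition. Libraries held 15661381 to 36224054 counts on genes, and each of the 10 genes had counts in all 42 mice. The capture of weakly expressed genes was uneven. In 8 libraries (3 chow, 4 WTD and 1 atorvastatin) more than 20% of the genes at 1 to 2 CPM in their group had no count, with 59.7% the highest share. The expected markers of sinusoidal endothelium were present in every chow liver, where the 6 sinusoidal genes summed to between 303 and 425 CPM. Their sum was 227 to 405 CPM with WTD and 263 to 410 CPM with atorvastatin, so the groups overlapped. The 4 vascular genes summed to 38.6 to 95.9 CPM on chow, 72.9 to 153 CPM on WTD and 88.3 to 115 CPM with atorvastatin.

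Per kilobase of exon, the scale on which genes can be compared, Clec4g had the highest level of the list in chow liver (median 33.3 CPM per kb), above the range of every other gene. It was followed by Fcgr2b (12.5 CPM per kb), Stab2 (11.4), Oit3 (8.68), Stab1 (7.27), Cdh5 (5.76), Pecam1 (3.23), Lyve1 (1.35), Vwf (1.09) and Cd34 (0.401), and after Clec4g each range overlapped that of its neighbour. On WTD the level of Clec4g (14.0 CPM per kb) ranged from 9.79 to 23.4 and overlapped that of Stab2 (11.7, from 10.1 to 14.9). Cdh5 came next with 9.71 CPM per kb, Cd34 (2.53) had passed Vwf (1.09), and all neighbours overlapped. With atorvastatin the same order was found as on WTD, with Clec4g at 22.9 CPM per kb.

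**Figure D1:**
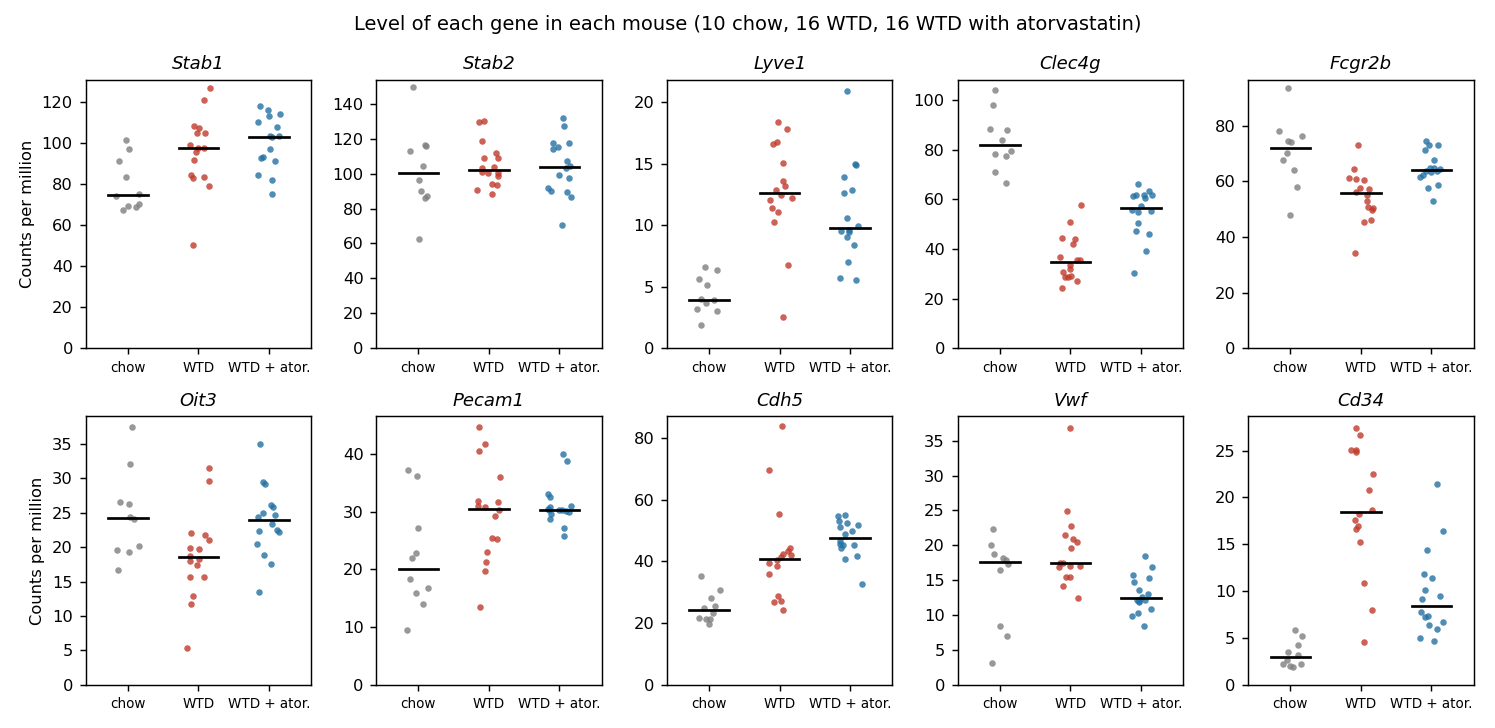
CPM (vertical axis, from 0) of the 10 genes in every mouse, with 1 point per mouse and a line at the group median, for chow, WTD and WTD with atorvastatin (WTD + ator.). Clec4g was lower in every WTD-fed mouse than in any chow mouse, Cd34 and Lyve1 were higher in most, and Stab2 had medians of 100.2, 102 and 104 CPM.

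The first comparison, WTD against chow, asks what the diet that causes steatohepatitis did to these genes. Clec4g and Fcgr2b fell, Lyve1, Cdh5 and Cd34 rose, and the other 5 did not pass the test. A gene was called when its p from the quasi-likelihood test of edgeR, adjusted after Benjamini-Hochberg over all 15574 genes, was under 0.01. By this rule 33.5% of all tested genes were called, 17.5% as higher and 16.0% as lower, against 5 of the 10 genes, 3 higher and 2 lower. The median log2 fold change was 0.32 over the 10 genes, -0.16 over the 6 sinusoidal and 0.60 over the 4 vascular genes, against 0.03 over all tested genes.

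Clec4g encodes a C-type lectin of sinusoidal and lymph node endothelium, which binds glycans on viruses and T cells. Its level was lowest at 66.7, median 81.9 and highest at 104 CPM on chow, and lowest at 24.1, median 34.5 and highest at 57.7 CPM on WTD. Every WTD mouse lay below every chow mouse, a separation that 5.84% of all tested genes showed. The log2 fold change was -1.20 (SE 0.11), a level 2.30 times higher on chow (adjusted p = 4.0e-13 from the edgeR test).

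Cd34 encodes a sialomucin on the surface of capillary endothelium in most organs. Its lowest, median and highest levels were 1.93, 2.92 and 5.89 CPM on chow and 4.57, 18.5 and 27.4 CPM on WTD. In 15 of 16 WTD mice the level lay above all chow mice, and the remaining mouse lay within the chow range. The log2 fold change of 2.50 (SE 0.26), or 5.66 times, was the 628th in size among the 15574 genes (adjusted p = 2.2e-11 from the edgeR test).

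The start regions of Clec4g and Cd34 are shown because these genes moved furthest in opposite directions. Start regions were found in RefSeq (GRCm38.p6) for 5 of the 10 genes, namely Stab1, Stab2, Clec4g, Fcgr2b and Cd34. Capitals mark the 6-letter words searched on both strands: AGGAAG and CGGAAG, words of ETS family factors, AGATAA and TGATAA, words of GATA factors, and TATAAA, the TATA box. The Clec4g sequence is chr8:3720652-3720901 on the minus strand, the 250 bases before its start. The Cd34 sequence is chr1:194938571-194938818 on the plus strand, the 248 bases before its start in the gene annotation.
Clec4g: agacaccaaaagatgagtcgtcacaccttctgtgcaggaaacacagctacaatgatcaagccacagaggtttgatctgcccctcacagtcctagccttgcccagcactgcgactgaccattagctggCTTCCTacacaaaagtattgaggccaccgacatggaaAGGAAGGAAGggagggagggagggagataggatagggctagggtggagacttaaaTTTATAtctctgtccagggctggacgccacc
Cd34: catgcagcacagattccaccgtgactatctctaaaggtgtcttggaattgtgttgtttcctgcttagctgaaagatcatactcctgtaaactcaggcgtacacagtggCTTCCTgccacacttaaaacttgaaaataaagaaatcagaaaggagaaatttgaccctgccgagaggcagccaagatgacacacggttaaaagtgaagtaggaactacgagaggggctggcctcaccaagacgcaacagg
In the Clec4g region AGGAAG stood on the plus strand at 86 and 82 bases before the start, overlapping each other, and on the minus strand at 123 bases. TATAAA stood on its minus strand at 31 bases before the start. The Cd34 region held AGGAAG once, on the minus strand at 142 bases before the RefSeq start. Among all 32851 start regions of the table, the 250 bases before the start held an ETS word in 39.2%, a GATA word in 16.6% and TATAAA in 12.4%. Of the 250 bases before the other matched starts, those of Stab1 held 2 ETS words and those of Stab2 held 1. Those of Fcgr2b held none of the 5 words. In the gene annotation, however, Fcgr2b starts 476 bases and Stab2 83 bases before the RefSeq start. The bases searched for Fcgr2b thus lay inside the annotated gene, as did the ETS word of Stab2, at 40 bases before the RefSeq start. No GATA word was found in any of the 5 regions. These matches describe letters only.

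Lyve1 encodes a hyaluronan receptor shared by sinusoidal and lymphatic endothelium. Its lowest, median and highest levels were 1.85, 3.94 and 6.59 CPM on chow and 2.56, 12.7 and 18.4 CPM on WTD. In 15 of 16 WTD mice it lay above all chow mice, and the exception, WTD replicate 10, is a library that missed 46.2% of the weakly expressed genes. The log2 fold change was 1.56 (SE 0.23, adjusted p = 1.3e-07 from the edgeR test).

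Fcgr2b encodes the inhibitory Fc gamma receptor, which in the liver takes up small immune complexes. Its levels ran from 48.1 over a median of 72.2 to 93.6 CPM on chow and from 34.1 over 55.7 to 73.1 CPM on WTD, with wide overlap. It fell by 0.36 on the log2 scale (SE 0.09, adjusted p = 0.00043 from the edgeR test). Without the 8 libraries that missed weakly expressed genes it fell by 0.25 and the edgeR adjusted p was 0.019. Of the words of 50 bases in its transcripts, 4.38% also occur in other genes, with Fcgr3 and Gm4117 sharing the most.

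The scavenger receptors Stab1 and Stab2, which clear hyaluronan, modified lipoproteins and other waste, did not pass the test. Stab2 had medians of 100.2 CPM on chow and 102 CPM on WTD, with ranges of 62.7 to 150 and 88.1 to 130 CPM. Its log2 fold change was 0.04 with a 95% interval of -0.15 to 0.23 (edgeR adjusted p = 0.75). Stab1 had medians of 74.8 and 97.6 CPM, and 15 of 16 WTD mice lay above the chow median. Its log2 fold change of 0.27 (95% interval 0.08 to 0.46) had an edgeR adjusted p of 0.019. With DESeq2, limma-voom, RLE scaling or at least 10 counts in every mouse it was called, with adjusted p from 0.0020 to 0.0066. Oit3, a secreted protein of hepatocytes and sinusoidal endothelium, had medians of 24.2 and 18.5 CPM, with 14 of 16 WTD mice below the chow median (log2 fold change -0.40, SE 0.16, edgeR adjusted p = 0.040).

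Among the vascular genes, Cdh5 encodes VE-cadherin, the adhesion molecule of endothelial junctions. Its lowest, median and highest levels were 19.8, 24.2 and 35.4 CPM on chow and 24.4, 40.8 and 83.8 CPM on WTD. All 16 WTD mice lay above the chow median and 12 above all chow mice (log2 fold change 0.76, SE 0.14, edgeR adjusted p = 7.9e-06). Pecam1, which encodes the junction protein CD31, had medians of 20.1 and 30.5 CPM, with ranges of 9.50 to 37.1 and 13.6 to 44.7 CPM. It did not pass the test (log2 fold change 0.44, SE 0.16, edgeR adjusted p = 0.019), whereas without the 8 libraries the value was 0.50 with an adjusted p of 0.0022.

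Vwf encodes von Willebrand factor, which tethers platelets and is stored in the endothelium of larger vessels. Its medians were 17.6 CPM on chow and 17.5 CPM on WTD, and it did not pass the test (log2 fold change 0.38, SE 0.19, edgeR adjusted p = 0.098). The chow mice were not evenly spread: replicates 5, 3 and 10 lay at 3.18, 7.02 and 8.40 CPM and the other 7 between 16.4 and 22.3 CPM. The WTD mice lay between 12.4 and 36.8 CPM, and replicate 10, a library with many missing weak genes, was the highest.

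**Figure D2:**
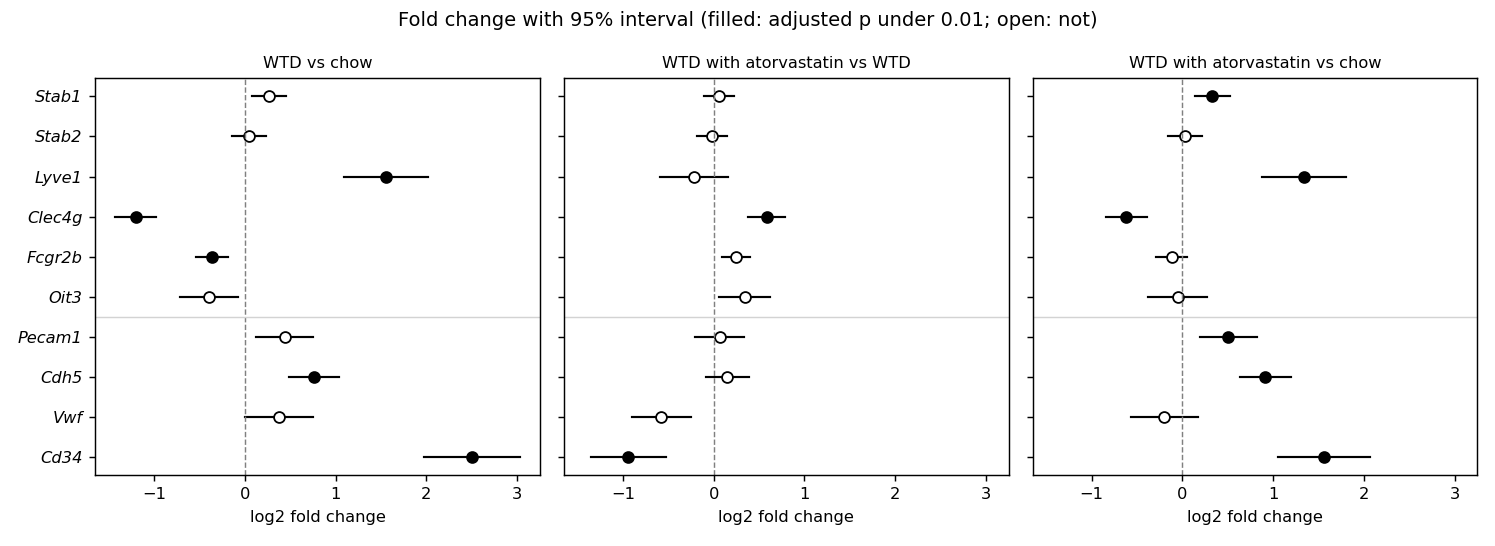
Log2 fold changes (horizontal axis) of the 10 genes in the 3 comparisons, as points with 95% intervals from the edgeR fit, filled where the adjusted p was under 0.01 and open otherwise, with a grey line between the sinusoidal and the vascular genes. Cd34 ran from 2.50 on WTD against chow to -0.94 on atorvastatin against WTD, and Clec4g from -1.20 to 0.59.

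The second comparison, atorvastatin against WTD, asks which of these genes differed when the drug was given with the diet. Clec4g rose and Cd34 fell, and the other 8 did not pass the test. Of all tested genes 7.1% were called, 4.84% as higher and 2.26% as lower, against 2 of the 10 genes. The median log2 fold change of the 10 genes was 0.07, against 0.00 over all tested genes. The WTD mice stand in both this and the previous comparison, so the values of both are not independent.

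Clec4g had a lowest level of 30.1, a median of 56.4 and a highest of 66.0 CPM with atorvastatin. In 15 of 16 treated mice it lay above the WTD median and in 7 above all WTD mice (log2 fold change 0.59, SE 0.10, edgeR adjusted p = 6.1e-05). Cd34 had a lowest level of 4.63, a median of 8.45 and a highest of 21.4 CPM. In 15 of 16 treated mice it lay below the WTD median, and all 16 lay within the WTD range. It fell by 0.94 on the log2 scale (SE 0.21, adjusted p = 0.0010 from the edgeR test). Without the 8 libraries that missed weakly expressed genes it fell by 0.85 and the edgeR adjusted p was 0.016.

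Vwf missed the threshold narrowly, with an edgeR adjusted p of 0.011. Its levels with atorvastatin ran from 8.38 over a median of 12.4 to 18.5 CPM, and 8 of 16 mice lay below all WTD mice (log2 fold change -0.58, SE 0.16). Without the 8 libraries it fell by 0.50 and was called (edgeR adjusted p = 0.0087). Fcgr2b had a median of 64.1 CPM and 15 of 16 mice above the WTD median (log2 fold change 0.24, SE 0.08, edgeR adjusted p = 0.024). Oit3 had a median of 23.9 CPM (log2 fold change 0.34, SE 0.14, edgeR adjusted p = 0.11).

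For the remaining 5 genes the 95% interval of the log2 fold change between atorvastatin and WTD included 0. The interval was -0.10 to 0.23 for Stab1, -0.18 to 0.15 for Stab2 and -0.59 to 0.16 for Lyve1. It was -0.20 to 0.34 for Pecam1 and -0.08 to 0.39 for Cdh5. Lyve1, raised on WTD, had a median of 9.77 CPM with atorvastatin, and 11 of 16 mice lay below the WTD median. With limma-voom it fell by 0.42 and was called (adjusted p = 0.0085).

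The last comparison, atorvastatin against chow, asks which genes still differed from the healthy reference. Of all tested genes 25.0% were called, 14.2% as higher and 10.7% as lower, against 6 of the 10 genes, 5 higher and 1 lower. Clec4g was lower in all 16 treated mice than in any chow mouse, a separation shown by 4.37% of all tested genes. The gap was small, with 66.0 CPM in the highest treated mouse and 66.7 CPM in the lowest chow mouse (log2 fold change -0.62, SE 0.11, edgeR adjusted p = 1.3e-05). Cd34 was higher by 1.56 (SE 0.25, edgeR adjusted p = 1.8e-06), Lyve1 by 1.34 (SE 0.23, edgeR adjusted p = 4.3e-06) and Cdh5 by 0.91 (SE 0.14, edgeR adjusted p = 4.9e-07). In 14 of 16 mice Cd34 and Lyve1 lay above all chow mice, and Cdh5 did so in 15.

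Pecam1 and Stab1 were also called against chow, with log2 fold changes of 0.51 (SE 0.16, edgeR adjusted p = 0.0089) and 0.33 (SE 0.10, edgeR adjusted p = 0.0049). Both followed the share of weakly expressed genes that a library missed, with Pearson r of -0.49 each over the 42 mice after removal of group means. With that share as a covariate their log2 fold changes were 0.33 and 0.20 and both had an edgeR adjusted p of 0.11. Fcgr2b and Oit3 did not pass the test against chow (95% intervals -0.29 to 0.05 and -0.38 to 0.27), nor did Stab2 (-0.16 to 0.21) and Vwf (-0.57 to 0.17).

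Ratios of genes within a mouse do not depend on how libraries are scaled, and they were set against Cdh5, a gene of all endothelium. The log2 ratio of Clec4g to Cdh5 was 1.25 to 2.27 on chow, with a median of 1.72. Its medians were -0.25 on WTD and 0.26 with atorvastatin, and all 16 mice of both WTD-fed groups lay below all chow mice. The ratio of Fcgr2b to Cdh5 was likewise below all chow mice in 16 of 16 mice of each group, with medians of 1.47 on chow, 0.42 on WTD and 0.45 with atorvastatin. Stab2 was below all chow mice relative to Cdh5 in 12 of 16 WTD and 15 of 16 atorvastatin mice, and Stab1 in 7 and 12. Oit3 was so in 14 mice of each group. As Cdh5 itself rose, these ratios lie further below chow than the levels of the numerators. Lyve1 went the other way. Its ratio to Cdh5 lay above all chow mice in 8 of 16 WTD and 2 of 16 atorvastatin mice, and below them in none.

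Pecam1 as the reference gave smaller counts below the chow range. Relative to Pecam1, Clec4g was below all chow mice in 15 of 16 mice of both groups and Fcgr2b in 8 WTD and 2 atorvastatin mice. Stab1 fell below the chow range in none of them. Lyve1 relative to Pecam1 again went the other way, above all chow mice in 12 WTD and 4 atorvastatin mice. The ratio of Cd34 to Clec4g had medians of 0.033 on chow, 0.631 on WTD and 0.145 with atorvastatin. All 32 WTD-fed mice lay above all chow mice for this ratio. Clec4g alone already set all WTD-fed mice apart from all chow mice, and Cd34 moved furthest the other way. How many other pairs of genes show such a separation was not counted, for this or the other ratios given.

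**Figure D3:**
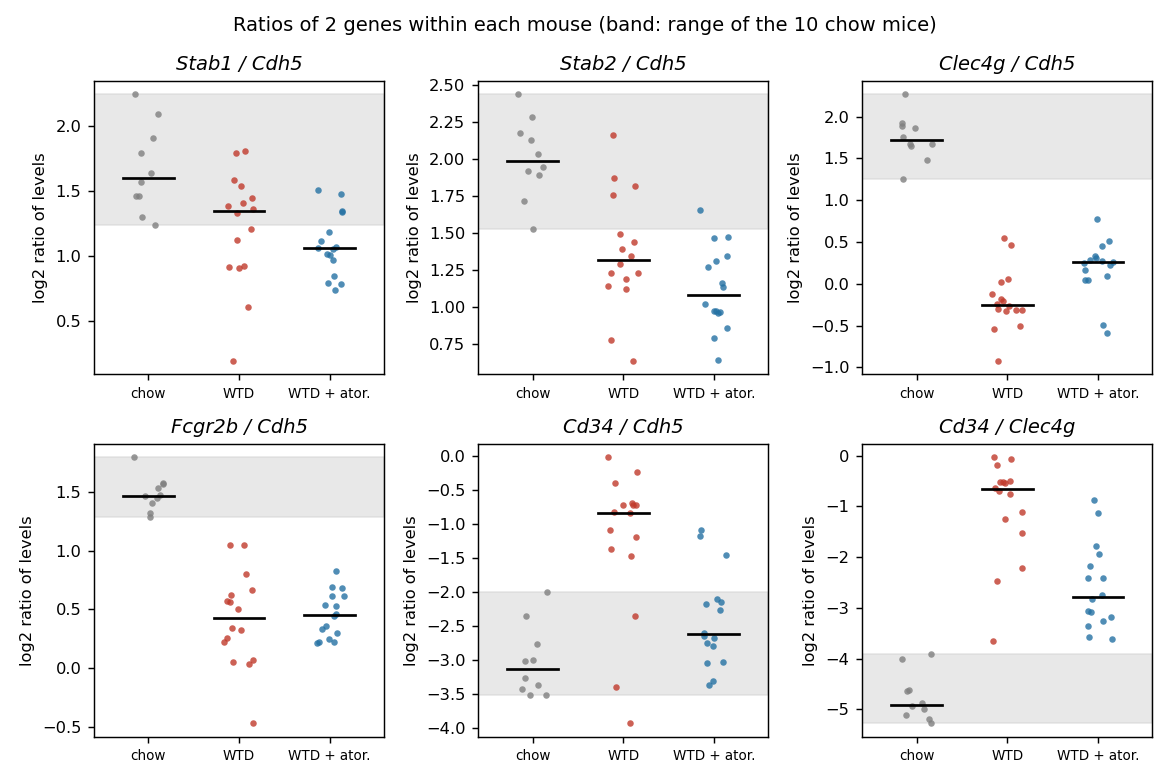
Log2 ratios of 2 genes within each mouse (vertical axis), with 1 point per mouse, a line at the group median and a grey band over the range of the 10 chow mice. All points of both WTD-fed groups lie below the band for Clec4g to Cdh5 and Fcgr2b to Cdh5, and above it for Cd34 to Clec4g.

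Between mice of a group the genes did not vary as a single block. Pearson correlations of log2 levels after removal of the group means are given here over 42 mice as a description. Both genes of a pair are read from the same library, so its depth and RNA composition act on both. Cdh5 correlated with Fcgr2b at 0.58, with Oit3 at 0.51, with Pecam1 at 0.49 and with Clec4g at 0.48. Stab2 correlated with Fcgr2b at 0.53 and with Clec4g at 0.47, and Stab1 with Lyve1 at 0.53. Stab1 with Stab2, the paralogous receptors, gave 0.32. Cd34 correlated negatively with 5 of the 6 sinusoidal genes, at -0.53 with Stab2, -0.50 with Clec4g, -0.40 with Oit3, -0.32 with Fcgr2b and -0.14 with Stab1. With Lyve1 it gave 0.14. Within groups Cd34 and Clec4g gave -0.77 on WTD (n = 16) and -0.59 with atorvastatin (n = 16). On chow (n = 10), where Cd34 did not exceed 5.89 CPM, they gave 0.68. Stab1 and Lyve1 gave 0.54 on chow, 0.84 on WTD and -0.10 with atorvastatin, while Stab2 and Fcgr2b gave 0.59, 0.49 and 0.65.

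**Figure D4:**
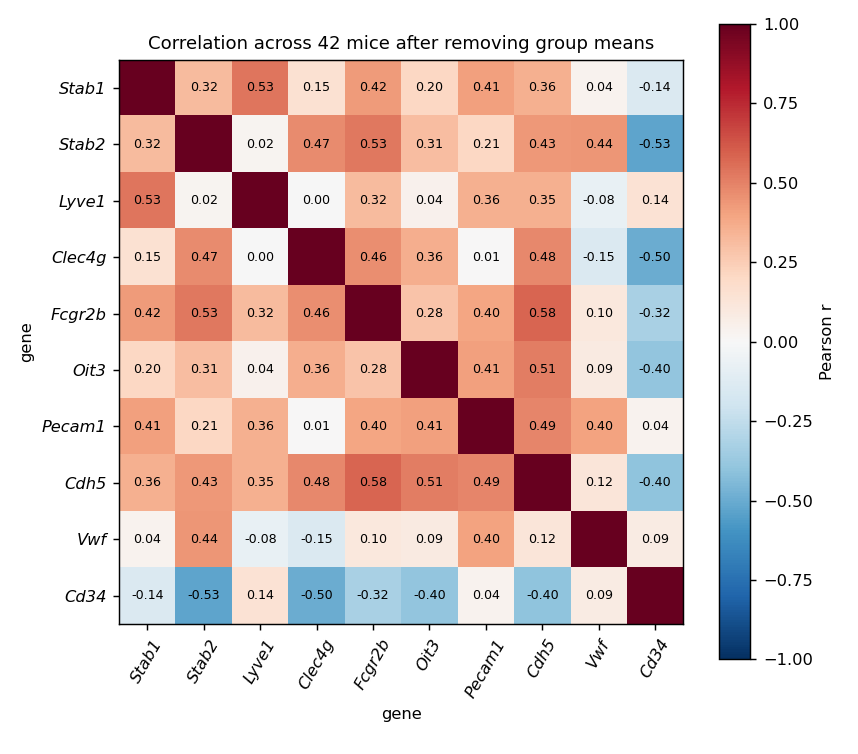
Pearson correlation of log2 levels between each pair of the 10 genes over 42 mice after removal of group means, written in each cell and coloured from blue (-1) to red (1). The row of Cd34 is negative with Stab2 (-0.53), Clec4g (-0.50), Cdh5 (-0.40) and Oit3 (-0.40).

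Some mice were the lowest or highest of their group for several genes. How much of the correlations rests on these mice was not tested. WTD replicate 14 was the highest of its group for Stab1, Stab2, Oit3, Pecam1 and Cdh5 (83.8 CPM) and next to the lowest for Cd34 (7.95 CPM). WTD replicate 15 was the highest for Clec4g (57.7 CPM) and Fcgr2b (73.1 CPM) and the lowest for Cd34 (4.57 CPM) and Vwf (12.4 CPM). Replicate 15 also had the lowest sum of macrophage genes in the WTD group (995 CPM), the lowest of fibroblast genes (1110 CPM) and the highest of hepatocyte genes. In the atorvastatin group replicate 7 was the lowest for Stab1, Stab2, Clec4g, Fcgr2b and Oit3 and the highest for Lyve1 (20.9 CPM), and its Cd34 level was 16.5 CPM. Of the chow mice, replicate 5, whose library missed 46.4% of weak genes, was lowest for Stab1, Stab2, Pecam1 and Vwf. Chow replicate 10, which missed only 3.8%, was lowest for Clec4g, Fcgr2b, Cdh5 and Cd34. Chow replicate 2, which missed 59.7%, was lowest for none and highest for Stab2. Chow replicate 6, which missed 28.1%, was highest for Lyve1, Fcgr2b, Pecam1 and Cdh5. Without WTD replicate 15 the atorvastatin comparison called 4 of the 10 genes in place of 2, with Vwf (edgeR adjusted p = 0.0051) and Fcgr2b (0.0060) added.

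The genes whose levels followed the members most closely were sought among 13644 tested genes with a mean of at least 1 CPM, by the same correlation. Cd34 was followed by the matrix genes Dpt (0.82) and Sparc (0.81) and by Gpx3 (0.78). Clec4g was followed by Aldh2 (0.80), an aldehyde dehydrogenase of hepatocytes, Pgrmc2 (0.79) and H2-Q10 (0.78). Ptprb, which encodes the endothelial phosphatase VE-PTP, came first for both Fcgr2b (0.71) and Cdh5 (0.68), with Pex3 (0.71) and 2310034O05Rik (0.68) next for Fcgr2b and Phf21b and Mansc4 (0.67 each) for Cdh5. Vwf was followed by Afap1l1 (0.80) and Tnfaip2 (0.73), and Pecam1 by the B cell receptor gene Cd79a (0.76), Kif3c (0.74) and Cdc42ep3 (0.71). Stab1 was nearest to Itgae (0.72), Pip5k1c (0.71) and Arhgef1 (0.70), Stab2 to Esrra (0.71), Tbc1d17 (0.70) and Prkag2 (0.69), Lyve1 to Idua (0.70), Gm20457 (0.69) and Ap4m1 (0.66), and Oit3 to Xrcc3 (0.77), Naip1 (0.73) and Prdm9 (0.72). Some of these values did not hold in every group. Ap4m1 with Lyve1 gave 0.06 on chow, 0.92 on WTD and 0.24 with atorvastatin. Aldh2 with Clec4g gave 0.28, 0.77 and 0.93, and Phf21b with Cdh5 gave 0.52, 0.83 and -0.0009.

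Genes of other cell types moved with the diet in the same libraries, in which 17.5% of all tested genes were called higher on WTD and 16.0% lower. Of 7 tested macrophage genes all 7 rose on WTD, with summed levels of 158 to 231 CPM on chow, 995 to 2645 CPM on WTD and 775 to 1825 CPM with atorvastatin. Of 10 stellate cell and fibroblast genes 7 rose, with sums of 415 to 660, 1110 to 2685 and 988 to 2469 CPM. All 8 hepatocyte genes fell, with median sums of 117580, 63299 and 101460 CPM, and all 6 cholangiocyte genes rose. With atorvastatin against WTD, 4 macrophage and 5 fibroblast genes fell and 6 hepatocyte genes rose, where 2.26% of all tested genes were called lower and 4.84% higher. Itgam, a further macrophage gene, had no count in any of the 42 mice, for a reason that is not known.

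Cd34 correlated with the summed fibroblast genes at 0.72, with macrophage genes at 0.67 and with hepatocyte genes at -0.56, and Clec4g at -0.60, -0.62 and 0.51, over 42 mice after removal of group means. For Lyve1 the same values were 0.21, 0.02 and -0.11, and for Stab1 0.10, 0.14 and -0.11. The part of these cell types in the changes of Cd34, Clec4g and Lyve1 was not tested.

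The remaining lists were small, and their counts on WTD stand against 33.5% of all tested genes called, 17.5% as higher and 16.0% as lower. Of the 7 Kupffer cell genes Vsig4, Cd5l and Folr2 rose on WTD and Cd163 fell, with Cd163 at a median of 9.45 CPM on chow and 0 CPM in both WTD-fed groups, where the reason for the absent counts is not known. Of 6 B cell genes only Cd22, a lectin of B cells, was called (log2 fold change 1.43, edgeR adjusted p = 1.8e-08), and the B cell genes summed to 8.05 to 80.0 CPM on chow and 13.9 to 45.9 CPM on WTD. Of the 4 tested platelet and megakaryocyte genes Treml1 had the smallest edgeR adjusted p on WTD, 0.053. They summed to 0.556 to 15.0 CPM on chow and 4.93 to 18.7 CPM on WTD, and Gp1bb had no count in any mouse. Of 6 lymphatic endothelial genes Pdpn rose and Prox1, which hepatocytes also express, fell, while Ccl21a had medians of 0 and 0.457 CPM on chow and WTD. Of 5 mesothelial genes Wt1 rose.

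Other genes of the sinusoidal lining gave a picture like that of Clec4g in part. Of 15 such genes 6 fell and 3 rose on WTD, and their log2 fold changes had a median of -0.18 (0.03 over all tested genes, of which 16.0% were called lower and 17.5% higher). Ehd3, an endocytic protein, fell by 1.26 (SE 0.18, edgeR adjusted p = 9.5e-08), with levels of 74.1 to 113 CPM on chow, 10.7 to 88.6 CPM on WTD and 48.0 to 94.0 CPM with atorvastatin. Dnase1l3, a secreted nuclease, fell by 0.95 (SE 0.16, edgeR adjusted p = 4.7e-06), and Gpr182, an atypical chemokine receptor, fell by 0.72 (SE 0.13, edgeR adjusted p = 4.3e-06). Adam23, Kdr and Fcgrt fell as well. The 3 that rose were Ptgs1, Tfpi and the mannose receptor gene Mrc1, which macrophages share. With atorvastatin against WTD 5 of the 15 rose and none fell, with a median of 0.19, where 4.84% of all tested genes were called higher and 2.26% lower. They were Ehd3 (0.83, SE 0.16), Dnase1l3 (0.67, SE 0.15), Kdr (0.46, SE 0.11), Gpr182 (0.41, SE 0.11) and Flt4 (0.38, SE 0.10).

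Genes shared by all endothelium mostly did not pass the test on WTD. Of 21 pan-endothelial genes 18 were not called, 2 fell and 1 rose, while 33.5% of all tested genes were called. The median was -0.09, against 0.03 over all tested genes. Ptprb fell by 0.82 (SE 0.13, edgeR adjusted p = 3.1e-07) and S1pr1, the sphingosine 1-phosphate receptor, fell by 0.48 (SE 0.10, edgeR adjusted p = 4.5e-05). Fli1, an ETS factor also made in blood cells, rose by 1.43 (SE 0.21, edgeR adjusted p = 1.4e-07). Their summed level was 371 to 591 CPM on chow, 313 to 489 CPM on WTD and 394 to 526 CPM with atorvastatin. Cdh5 and Pecam1, of the same class, thus had fold changes above the median of this list.

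Of 17 tested genes of capillary and large vessel endothelium 6 rose and none fell on WTD, where 17.5% of all tested genes were called higher and 16.0% lower. The median was 0.80, against 0.03 over all tested genes. Fabp4, a fatty acid binding protein that capillaries share with other cells, rose by 1.15 (SE 0.22, edgeR adjusted p = 2.7e-05). Ltbp4 rose by 0.54 (SE 0.10, edgeR adjusted p = 1.3e-05). Esm1 lay at 0 to 1.73 CPM on chow and at 1.16 to 6.85 CPM on WTD, and the adhesion molecule gene Sele at 0 to 0.284 and 0 to 3.39 CPM. Cav1 and Selp were the other 2. The part of other cell types in the changes of this list was not tested. With atorvastatin Fabp4 fell by 0.83 (SE 0.19, edgeR adjusted p = 0.0015) and Plvap, the diaphragm protein of fenestrated endothelium, rose by 0.50 (SE 0.11, edgeR adjusted p = 0.0010).

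**Figure D5:**
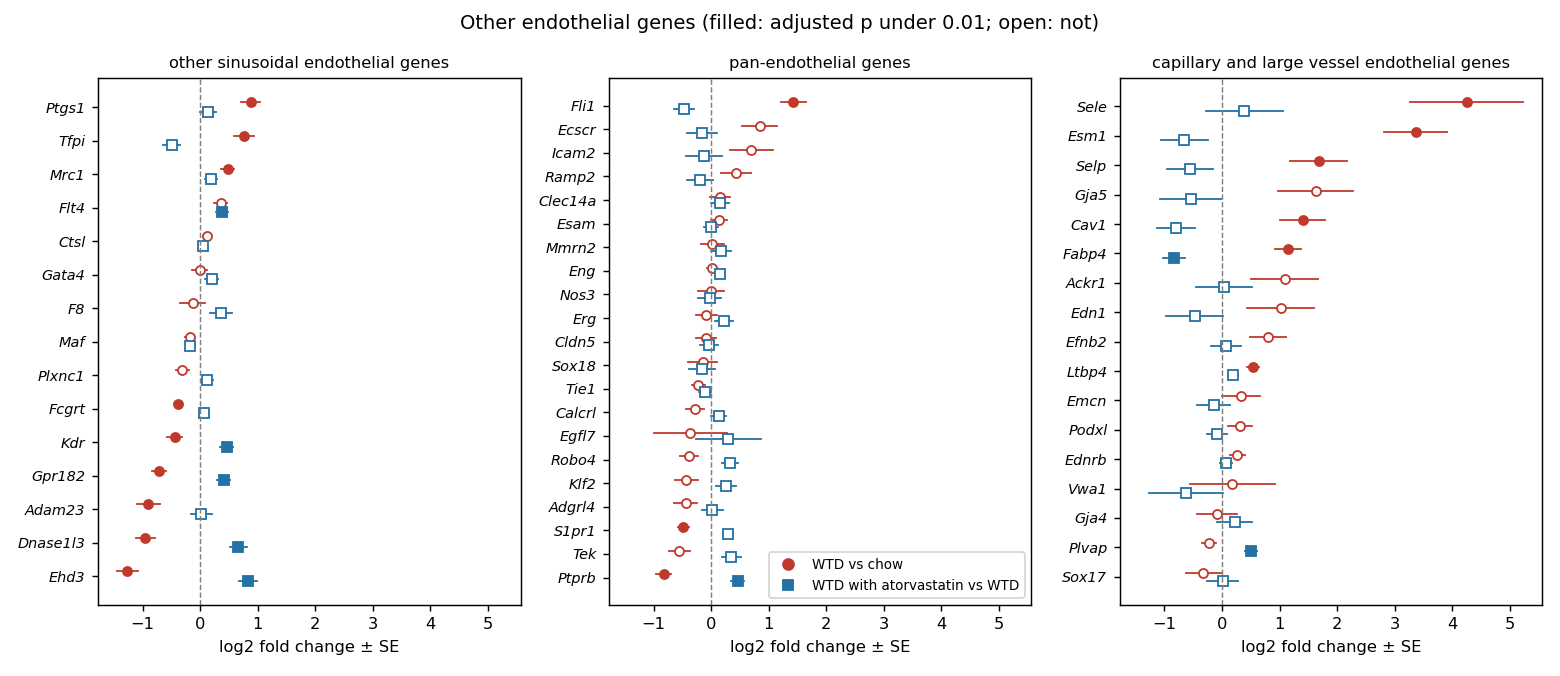
Log2 fold changes with standard errors (horizontal axis) for other sinusoidal, pan-endothelial, and capillary and large vessel endothelial genes, with circles for WTD against chow and squares for atorvastatin against WTD, filled where the edgeR adjusted p was under 0.01. Ehd3 fell by 1.26 on WTD and was 0.83 higher with atorvastatin than on WTD, while 18 of 21 pan-endothelial genes had open circles.

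Of 13 tested ligands and receptors of the VEGF and angiopoietin families 3 rose, 2 fell and 8 were not called on WTD. This is a share near the 33.5% called over all tested genes. Vegfa, the main growth factor for endothelium, fell by 0.75 on WTD (SE 0.11, edgeR adjusted p = 1.1e-07). Its levels ran from 222 to 390 CPM on chow and from 146 to 245 CPM on WTD. With atorvastatin against WTD it rose by 0.56 (SE 0.10, edgeR adjusted p = 7.6e-05), together with the receptor genes Kdr and Flt4. None of the 13 was called lower there, where 4.84% of all tested genes were called higher and 2.26% lower. Kdr was the other gene of this list that fell on WTD. Vegfc rose by 1.34 on WTD (SE 0.21, edgeR adjusted p = 3.4e-07), and Angpt1 and Angpt2 rose as well.

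Of 10 angiocrine factors, signals from the endothelium to hepatocytes, 2 fell and 1 rose on WTD, a share near the 33.5% called over all tested genes. Bmp2, which induces hepcidin in hepatocytes, fell by 0.46 (SE 0.14, edgeR adjusted p = 0.0065) and was 0.50 higher with atorvastatin than on WTD (SE 0.12, edgeR adjusted p = 0.0039). Cxcl12 fell by 0.25 (SE 0.08, edgeR adjusted p = 0.0085) and the Notch ligand Jag1 rose by 0.72 (SE 0.22, edgeR adjusted p = 0.0067). The remaining 7 factors were not called on WTD.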

How the data were processed

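Liver RNA of 42 mice was measured by strand-specific, poly(A)-selected paired-end RNA sequencing, 1 library per mouse. The authors aligned reads to GRCm38 with STAR 2.5 and deposited raw counts per gene made with HTSeq 0.6.1p1 on GENCODE vM19. The submitters' processing notes also name Trimmomatic and DESeq2. The 42 single tables were identical to the merged table. Symbols, exon lengths and positions were taken from GENCODE vM21, in which 54409 of 54446 identifiers were found. Reads without a gene (2.28% on average), ambiguous reads (5.95%) and reads aligned at several places (4.68%) were left out.

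Genes were kept by filterByExpr with a minimum count of 10 and a minimum total of 15, scaled by TMM and fitted with edgeR 4.0.16 (robust quasi-likelihood, R 4.3.3) over all 3 groups. p-values were adjusted by Benjamini-Hochberg over the 15574 genes tested, with a threshold of 0.01, and intervals are 95%. SE is the log2 fold change over the root of the F statistic. Correlations used log2 CPM with a prior count of 2. No test was made on ratios, correlations or lists. Because 1 library stands for each mouse, the spread is that between animals. The fit was tested on simulated data. These gave all genes the same spread and held no libraries that missed weakly expressed genes, so they do not address the uneven capture.

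The 10 genes and all lists were chosen with earlier results of these data known. By rule, the named genes are the 10 genes, the 3 with the smallest p per list and comparison, the 3 genes nearest to each member (1 of them is not reported here), and markers of other cell types. Genes outside these rules (Adam23, Fcgrt, Tfpi, Ptgs1, Mrc1, Cav1, Selp, Sele, Angpt2 and Folr2, and Kdr, Gpr182 and Flt4 in part) were named after their values were seen, to complete a count. Alternatives were DESeq2 1.42.0, limma-voom 3.58.1 with quality weights, RLE and upper-quartile scaling, TMM without the 20 most abundant genes, other filters and thresholds, no robust estimation, only the 2 groups compared, no libraries that missed over 20% of weakly expressed genes, that share as a covariate, and each mouse left out. Annotated antisense genes overlap Stab1, Stab2, Clec4g, Fcgr2b, Cdh5 and Cd34, and the strand setting of the counting is not given in the sources used here. Start regions came from RefSeq (GRCm38.p6). Shared sequence was counted as 50-base words in the vM21 transcripts.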

Additional observations from a re-analysis of the deposited data

How the results depend on the processing

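The counts of called genes among the 10 were 5, 2 and 6 for WTD against chow, atorvastatin against WTD and atorvastatin against chow. Of all tested genes 33.5%, 7.1% and 25.0% were called. With limma-voom and quality weights the first count was 8 (Stab1, Oit3 and Pecam1 added) and the second 6 (Lyve1, Fcgr2b, Oit3 and Vwf added), and at an adjusted p under 0.05 they were 8 and 4. The share of all tested genes also rose, to 41.8% and 20.2% with voom and to 43.9% and 13.0% at 0.05. When a log2 fold change of 1 or more in size was also required, the counts were 3, 0 and 2, in all of which the called genes were among those called at first. Of all tested genes 13.8%, 0.642% and 8.27% then remained. For the count of 0, 5 of the 10 genes had an unadjusted p under 0.05 in edgeR, and DESeq2 called 3 without the limit on fold change. With each mouse left out in turn the counts were 5 to 6, 2 to 4 and 4 to 6. Under the other settings each count stayed within 1.5 times of its first value. Clec4g kept its direction in the 3 comparisons under every setting, and lost a call only where a log2 fold change of 1 was required, as Cdh5 did against chow. Vwf with atorvastatin against WTD was called with DESeq2, voom, RLE, upper-quartile scaling and at least 10 counts in every mouse. It was also called with the 2 groups alone, without the 8 libraries and without 9 of the 42 single mice. In these settings the adjusted p ran from 0.00056 with voom to 0.0097 with edgeR without atorvastatin replicate 16. Over all 42 mice left out in turn, the edgeR adjusted p reached 0.029. Pecam1 against chow with atorvastatin lost its call without 20 of the 42 single mice and Stab1 without 5.

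Directions turned for values near 0 that had not been called. Stab2 on WTD against chow ranged from -0.02 to 0.12 with mice left out, the negative value coming without chow replicate 5 (-0.0179). With atorvastatin against WTD, Stab1 was -0.0053 with the covariate, Stab2 was 0.0585 with voom and ranged from -0.0479 to 0.0138 with mice left out (0.0057 without WTD replicate 4, 0.0063 without WTD replicate 14 and 0.0138 without atorvastatin replicate 7). Pecam1 was -0.032 with voom, -0.0632 without the 8 libraries and -0.0309 with the covariate, and Cdh5 was -0.0106 without the 8 libraries. With atorvastatin against chow, Stab2 was -0.0011 with upper-quartile scaling, -0.0341 without chow replicate 5 and -0.0075 without atorvastatin replicate 13, within a range of -0.0341 to 0.103, and Oit3 ranged from -0.1038 to 0.0326, positive without chow replicate 9. The causes were not tested. Other scalings moved the median of all genes by less than 0.1. No paired analysis was possible because mouse numbers name separate animals. Replicate numbers follow the order of the samples within a group, so an equal number in different groups does not link mice.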
